A study of Mus musculus with 6 samples.

Results

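The cytosolic ribosomal protein genes were described in mouse embryonic stem (ES) cells in which human GTF2I can be switched on. Genes were taken by symbol, as those beginning with Rpl or Rps and a digit, or named Rplp0, Rplp1, Rplp2 or Rpsa, without the kinases beginning with Rps6k and without predicted pseudogenes. A gene was included where an array probe set carried its symbol and no other, and the brightest such probe set over the 6 arrays represented it. This gave 50 of the 18193 genes so represented, measured by 106 of 45037 probe sets. Of the 50, 21 encode proteins of the small subunit, 22 encode proteins of the large subunit, and 6 are paralogs of such genes (Rpl3l, Rpl7l1, Rpl22l1, Rpl39l, Rps4l and Rps27l). The last, Rps19bp1, encodes a protein that binds Rps19 and is no part of the ribosome. The 43 subunit genes stand for 77 subunit names listed. Of the other 34, 27 were named only by probe sets that list several symbols, and 7 were not listed in the annotation used here.

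Total RNA was hybridized to 6 Affymetrix whole-genome mouse arrays. Clones A1, B3 and C6 of the ES line EBRTcH3 were used, each with the human GTF2I coding sequence, tagged with 3xFLAG and lacking untranslated regions, at the ROSA26 locus behind a tetracycline-repressed promoter. GTF2I encodes the transcription factor TFII-I. Each clone gave 1 array with tetracycline present (uninduced, 0 h) and 1 array 24 h after its removal (induced), so both groups had 3 arrays and every array was from 1 clone. All cells grew with leukemia inhibitory factor, and a characteristics field names GTF2IRD2 where the titles name GTF2I, which were followed.

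Ribosomal proteins join ribosomal RNA in the nucleolus to form the small subunit, which decodes messenger RNA, and the large subunit, which joins amino acids. Their genes are among the most strongly transcribed in growing cells. Their messenger RNAs typically begin with a C followed by a run of pyrimidines, the terminal oligopyrimidine (TOP) motif, through which the growth-sensing kinase mTORC1 adjusts their translation. In bulk RNA, a change in the mix of cells and a change in the RNA of each cell cannot be told apart.

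The starts of 8 members are shown because they include the gene that passed the test of A1 against B3 and C6. The others are described in the results, and the 8 include genes with and without a TOP start as read below. They were picked with their values known and are not a ranking. Each window holds 15 bases before and 15 from the annotated RefSeq start in GRCm38.p6, 5′ to 3′ on the transcript strand. Capitals mark a run of at least 5 pyrimidines that begins at the start.
Rpl27a, chr7:109519180-109519209, plus strand: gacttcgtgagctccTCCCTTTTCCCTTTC
Rps6, chr4:86857353-86857382, minus strand: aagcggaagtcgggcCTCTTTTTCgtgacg
Rpl14, chr9:120571502-120571531, plus strand: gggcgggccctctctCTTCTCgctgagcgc
Rps10, chr17:27635230-27635259, minus strand: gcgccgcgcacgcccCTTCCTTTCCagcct
Rps18, chr17:33955651-33955680, minus strand: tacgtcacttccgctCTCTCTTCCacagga
Rplp2, chr7:141447636-141447665, plus strand: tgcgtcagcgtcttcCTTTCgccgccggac
Rps27l, chr9:66946071-66946100, plus strand: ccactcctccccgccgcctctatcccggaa
Rpl39l, chr16:10170213-10170242, plus strand: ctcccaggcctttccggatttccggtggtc
The first base from the start was C in Rps6, Rpl14, Rps10, Rps18 and Rplp2, and T in Rpl27a. Rpl27a had a run of 16 pyrimidines from its annotated start and was not read as a TOP start only because of this T. In both paralogs, Rps27l and Rpl39l, the first base was G, so no run began at the start. Rps27l has 2 listed starts, of which the first is shown.

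RefSeq promoter sequences were matched for 44 of the 50 members. A TOP start, read as C at an annotated start and at least 4 C or T after it on the transcript strand, was found in 8 members (18.2% of 44), against 3.01% of 27025 genes. The 8 were Rpl14, Rpl35, Rpl38, Rplp2, Rps10, Rps18, Rps27 and Rps6. The letters CTTTC or CTTCC, which can overlap the TOP run, lay in the 30-base window on the transcript strand of 15 members (34.1%), against 12.1% of all genes. The letters CCGGAAG, searched on both strands of the 300-base promoter, were found in 21 members (47.7%), against 9.93% of all genes. These matches describe the letters of the windows and not sites in use. The TOP count depends on the exact base annotated as the start, so it can miss TOP messages, and the accuracy of the starts was not tested.

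Before the results, the clones have to be distinguished. Over all probe sets, the arrays labelled A1 moved against B3 and C6 on induction. The induced minus uninduced difference of A1 differed from that of B3 and C6 for 1219 probe sets (limma, adjusted p under 0.05). Results are therefore given for all 3 clones and without A1. Array medians of the log2 values ran from 5.06 to 5.11 and upper quartiles from 7.29 to 7.40. The ES cell markers were all at a mean of at least 6 on the log2 scale (9 of 9 genes), as were 3 of 10 fibroblast, 0 of 8 primitive endoderm and 3 of 8 neural markers. Pou5f1, which encodes the pluripotency factor Oct4, averaged 12.95. The mean level of the fibroblast list ranged from 5.11 to 5.23 in uninduced and from 5.17 to 5.23 in induced arrays, that of the primitive endoderm list from 4.59 to 4.81 and from 4.56 to 4.79, and that of the neural list from 5.27 to 5.44 and from 5.28 to 5.42.

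Most members, each represented by its brightest probe set, lay at the top of the array scale and barely varied. A mean of at least 13 was reached by 35 members, 34 of them subunit genes, where 0.597% of all probe sets (269) lie. Taking the brightest probe set per gene favours high levels. No such choice was made over all probe sets, so these shares are not like for like. The 269 also include probe sets of the members. The array maxima were 14.45 to 14.56, and whether signals this near the maximum are compressed was not tested, which bears on every small SD and difference given for these members. The SD over the 6 arrays, both states and all clones together, had a median of 0.041 log2 units in these 35 members and 0.052 in the 269 probe sets. The steadiest was Rps7, a small subunit protein that also binds the p53 regulator Mdm2. It read 13.87, 13.88 and 13.87 in uninduced A1, B3 and C6, and 13.87, 13.88 and 13.90 in the induced arrays. Rps24, of the small subunit, ranged from 14.03 to 14.06, and Rpl38, of the large subunit, from 13.98 to 14.03.

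**Figure D1:**
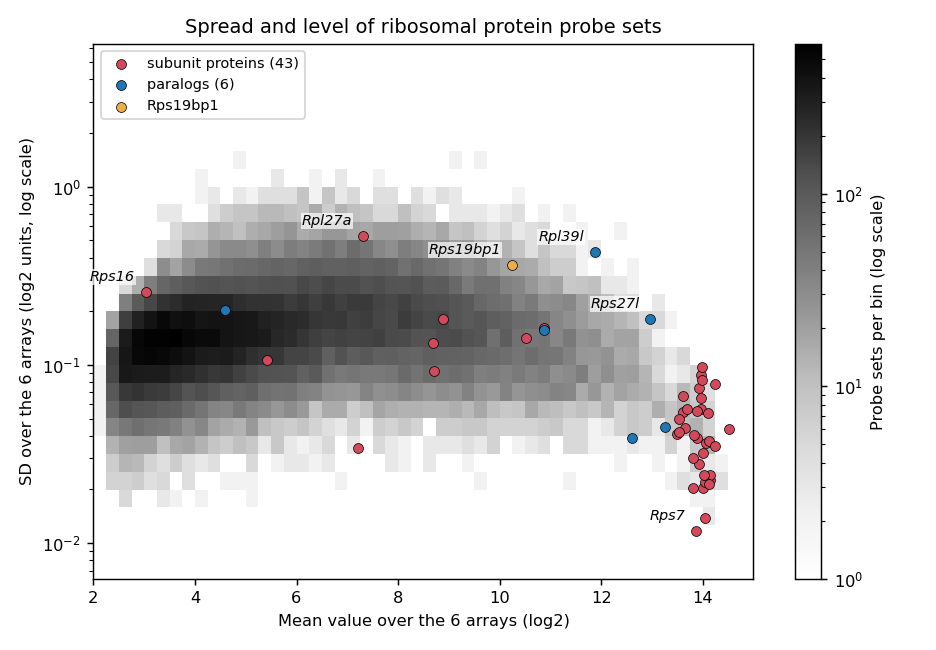
SD over the 6 arrays (log2 units, on a log axis) against the mean (log2) for all probe sets, as grey bins shaded by their number, and for the 50 members as points coloured by role. Members with a mean of at least 13 had a median SD of 0.041, those below it 0.16.

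The other 15 members had a median SD of 0.16, beside 0.17 over the 17168 probe sets averaging at least 6. The ranges differ, since 3 of the 15 average under 6 and the 17168 include probe sets averaging at least 13. The 15 members include dim probe sets for subunit genes: Rps16 averaged 3.03, Rpl39 5.42, Rps27 7.21, Rpl27a 7.31, Rps6 8.68, Rpl12 8.71 and Rpl14 8.89. With the muscle paralog Rpl3l at 4.59, 8 members had a mean under 10, and 47 of 50 had a mean of at least 6. A level on this array belongs to a probe set and gives no ranking of genes. Fau, a ribosomal protein gene outside the naming rule, lay between 13.27 and 13.40. Rack1 had no probe set with 1 symbol and was not analysed here.

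The study asked which genes respond when TFII-I is raised. Among the ribosomal protein genes, no response common to the 3 clones was detected. With limma, 0 of 50 members passed an adjusted p of 0.05, beside 0% of all probe sets in either direction. Without adjustment 0 of 50 had a p under 0.05, beside 0.968% of all probe sets, and the methods' t-test likewise called 0 of 50 members, adjusted or not. The median induced minus uninduced difference was 0.0098 log2 units over the members (33 higher, 17 lower) and 0.00075 over all probe sets (22636 higher, 22401 lower). The members' median had no settled direction, since it was -0.0038 with arrays centred on their medians and -0.0051 without A1. By clone, A1 had a members' median of 0.0092, B3 of -0.0013 and C6 of 0.0090. The median was 0.0095 over the small subunit, 0.011 over the large subunit and -0.0073 over the paralogs. The 95% interval of a member, without adjustment, reached 0.21 to either side at the median. The adjusted threshold is stricter, so common changes larger than this could also have gone uncalled. The interval takes no account of any compression of bright signals.

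**Figure D2:**
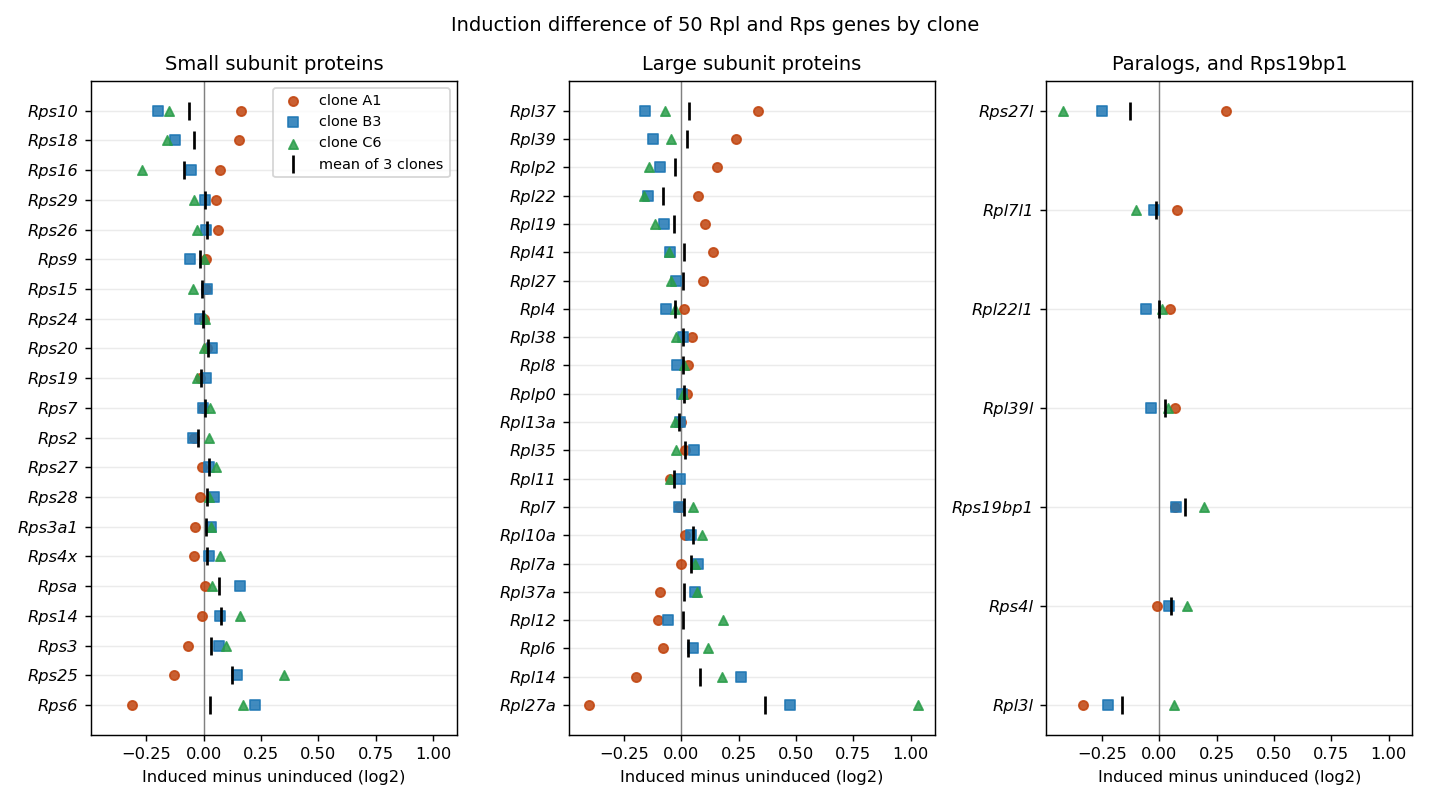
Induced minus uninduced difference (log2) of each of the 50 members in clones A1 (circles), B3 (squares) and C6 (triangles), and their mean as a bar, ordered by how far A1 stood above the other clones. Most members lie near 0 in every clone, and Rpl27a spans -0.41 in A1 to 1.03 in C6.

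The clones disagreed in direction for the members with the largest mean differences, Rps19bp1 excepted. On the lower side these were Rpl3l (-0.16), Rps27l (-0.13), Rps16 (-0.08), Rpl22 (-0.08) and Rps10 (-0.06). On the higher side they were Rpl27a (0.37), Rps25 (0.12), Rps19bp1 (0.11), Rpl14 (0.08) and Rps14 (0.07), none past the test. The direction was shared by all 3 clones in 7 of 50 members, beside 18.8% of all probe sets: Rpl10a, Rpl11, Rpl13a, Rplp0, Rps19bp1, Rps20 and Rpsa. Rpl10a, of the large subunit, was the 1 member whose groups did not overlap, beside 4.55% of all probe sets. It read 13.86, 13.86 and 13.88 in uninduced A1, B3 and C6 and 13.88, 13.90 and 13.96 in the induced arrays, a difference of 0.05 ± 0.09 (SE, n = 3 per group; limma adjusted p = 1.00). The gap between its groups was smaller than the spread among the induced arrays.

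The members were then compared between clones, with the induction difference of A1 tested against those of B3 and C6. The lone clone is assumed in this test to vary like the others. It called 1 of 50 members, Rpl27a, beside 2.71% of all probe sets. With the difference of A1 below that of the others, 1 of 50 passed beside 0.999%. With it above, 0 of 50 passed beside 1.71%. An unadjusted p under 0.05 was found for 5 of 50 members (Rpl14, Rpl27a, Rpl37, Rps27l and Rps6) and for 17.1% of all probe sets. The share of members was below that of all probe sets in each of these counts except the lower direction, which rests on 1 gene.

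Rpl27a encodes a large subunit protein. Its probe set read 7.25, 6.87 and 7.27 in uninduced A1, B3 and C6, and 6.84, 7.34 and 8.30 in the induced arrays. It was lower after induction in A1 and higher in B3 and C6, most of all in C6, and the 2 groups overlapped. The differences were -0.41, 0.47 and 1.03, so that the difference of A1 was 1.16 ± 0.24 (SE) below that of the others on the log2 scale (limma, adjusted p = 0.0425). The other probe set of Rpl27a averaged 2.91 and had an estimate of 0.10 in the opposite direction. The call was lost where limma used a mean-variance trend (adjusted p = 0.0671), where only 1 probe set per gene was fitted (0.0517) and where the gene's probe sets were averaged (-0.53, 0.148).

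The probe sets of 18S ribosomal RNA, which are Affymetrix controls and were not tested, moved between the clones in the direction of Rpl27a. The 3′ control read 7.76, 7.27 and 7.17 in uninduced A1, B3 and C6, and 6.67, 9.04 and 9.15 in the induced arrays. Its differences were -1.10, 1.77 and 1.98, and those of the 5′ control were -0.58, 2.52 and 1.89. Actin and Gapdh control probe sets differed by at most 0.20 within a clone. The part of what moved these controls in the result for Rpl27a was not tested.

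Rps27l, the paralog of Rps27 known as a p53 target, was the next by p and went the other way. It read 12.82, 13.08 and 13.20 in uninduced A1, B3 and C6, and 13.11, 12.83 and 12.78 in the induced arrays. Induced A1 was above uninduced A1, whereas B3 and C6 went down, with the difference of A1 at 0.63 ± 0.19 (SE) above that of the others, which did not pass (limma, adjusted p = 0.124). Its other 2 probe sets had estimates of 0.64 and 0.51. Among the 17168 probe sets averaging at least 6, the same test called it (adjusted p = 0.0467). The share of all probe sets called there was larger than the 2.71% of the main fit.

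Of the small subunit, Rps6, the substrate of the S6 kinases, had an estimate of -0.51 (limma, adjusted p = 0.193). It read 8.83, 8.58 and 8.61 in uninduced A1, B3 and C6 and 8.52, 8.80 and 8.78 in the induced arrays. A1 was the highest uninduced array and the lowest induced one. Rps25, which is needed for initiation at certain internal ribosome entry sites, had an estimate of -0.38. Rps10, at the entry channel for messenger RNA, had one of 0.34, reading 13.88, 14.08 and 14.09 in uninduced and 14.05, 13.88 and 13.94 in induced arrays. All 6 probe sets of Rps10 had estimates above 0, from 0.21 to 0.61. Rps18 had one of 0.30, and 5 of its 6 probe sets were above 0. The dim Rps16 probe set had one of 0.23, and none of these passed.

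Of the large subunit, Rpl37 had an estimate of 0.45 (limma, adjusted p = 0.253) and Rpl14 one of -0.42 (0.289). Rpl37 read 10.58, 11.07 and 10.91 in uninduced A1, B3 and C6 and 10.92, 10.92 and 10.83 in the induced arrays, so that the low value was uninduced A1. The estimate was 0.32 for Rpl39, which lines the exit tunnel for the growing peptide, 0.27 for Rplp2, a protein of the stalk that recruits elongation factors, 0.23 for Rpl22 and 0.20 for Rpl19. The TOP-start genes shown above had induction estimates of A1 against the others on both sides of 0, below it for Rps6 and Rpl14 and above it for Rps10, Rps18 and Rplp2, none past the test. The TOP-start genes Rpl35, Rpl38 and Rps27 had estimates of -0.00068, 0.05 and -0.04.

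**Figure D3:**
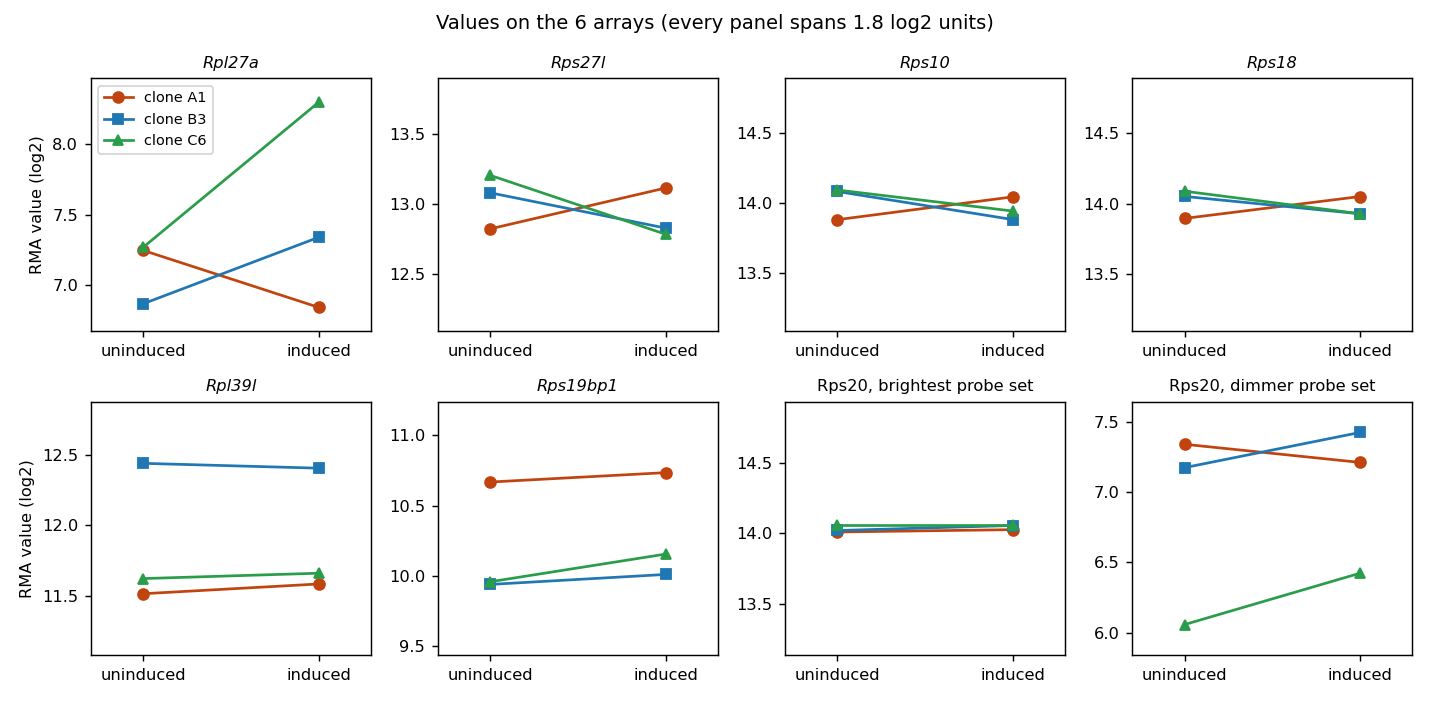
RMA values (log2) of 6 genes on the 6 arrays, where lines connect both states within a clone, and of 2 probe sets of Rps20; every panel spans 1.8 log2 units. Rps27l, Rps10 and Rps18 cross between A1 and both other clones, and Rpl27a crosses between A1 and B3. Rpl39l is high in B3 and Rps19bp1 in A1.

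In direction alone, A1 moved against both other clones in 27 of 50 members (54%), beside 41.4% of all probe sets. Of these, 13 moved up in A1 and down in the others, beside 19.9%, and 14 moved down in A1 and up in the others, beside 21.5%. Brighter probe sets held this pattern more often in general. It was found in 25 of the 47 members with a mean of at least 6, beside 60.3% of such probe sets, and in 17 of the 35 with a mean of at least 13, beside 63.6%. At equal brightness the share of members was thus no higher than that of all probe sets. Among the 27, 8 large subunit and 3 small subunit genes moved up in A1, and 5 and 8 moved down. This split was not tested.

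The sizes were small. The median size of the A1 estimate, without its sign, was 0.069 log2 units in the 35 members with a mean of at least 13 and 0.10 in the 269 probe sets of that range. A size of at least 0.2 was reached by 4 of the 35 members (Rps10, Rps18, Rplp2 and Rpl22, with Rpl19 just under it) and by 56 of the 269 probe sets. Among the 15 members below that level the median size was 0.25. The signed median over all members was -0.00089, beside -0.011 over all probe sets.

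**Figure D4:**
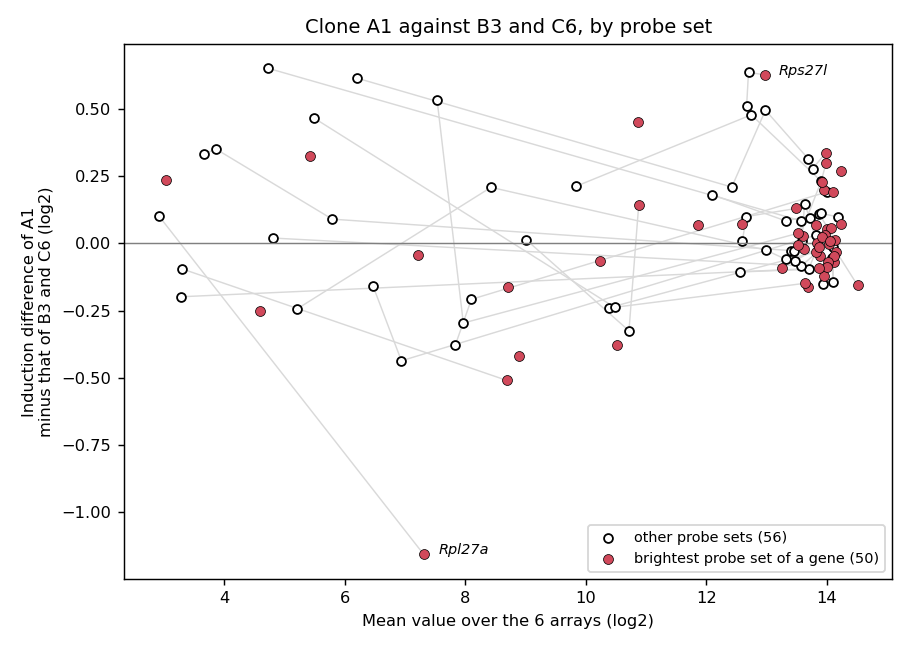
Induction difference of A1 minus the mean of those of B3 and C6 (log2) against the mean over the 6 arrays (log2) for the 106 probe sets, with grey lines joining probe sets of a gene. Estimates stay near 0 above a mean of 13 and spread to both sides below it, with Rpl27a at -1.16.

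Probe sets of a gene did not always have the same sign. Of 24 members with several probe sets, 11 had A1 estimates on both sides of 0. After Rpl27a, the widest were Rps9, whose probe sets averaged 13.53, 7.97 and 7.53 and had estimates of 0.04, -0.30 and 0.53, and Rps3, at 13.64, 10.48 and 5.48 with -0.15, -0.24 and 0.47. Rps9 and Rps3 are small subunit proteins near the path of messenger RNA. In both, the widest estimate came from the dimmest probe set. Probe sets marked by Affymetrix as possibly binding related transcripts (_x_at) represented 11 members, and those marked _s_at 2.

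Without A1, the comparison of induced and uninduced arrays of B3 and C6, with the clone as a replicate block, called 1 of 50 members, beside 2.18% of all probe sets. This was Rpl27a, higher by 0.75 ± 0.14 (SE, n = 2 per group; limma, adjusted p = 0.0327), as 1 of 50 called higher beside 0.87%. The call rests on the same B3 and C6 differences as the A1 test and is not independent of it. Called lower were 0 of 50, beside 1.31%, and the smallest adjusted p on that side was that of Rps27l (-0.34, adjusted p = 0.161). An unadjusted p under 0.05 was found for 2 of 50 members, Rpl27a and Rps27l, beside 16.1% of all probe sets. Without the block the Rpl27a call was lost (adjusted p = 0.570). Averaged over all members, B3 and C6 were again near 0, with a median of -0.0051.

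Levels were also compared between clones irrespective of induction, and the members stood near or below the background. An F test over the 3 clones, with the state as a covariate, called 1 of 50 members, beside 1.13% of all probe sets, and 3 of 50 had an unadjusted p under 0.05, beside 13.7%. The call was Rpl39l, the paralog of Rpl39 known from testis and ES cells. It read 12.44 and 12.41 in uninduced and induced B3, 11.51 and 11.58 in A1, and 11.62 and 11.66 in C6. B3 stood above the other clones in both states with no overlap, by up to 0.88 in the clone means (limma, adjusted p = 0.0341). Among probe sets averaging at least 6, its adjusted p was 0.0662. The induction difference of Rpl39l was at most 0.07 in any clone.

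Rps19bp1, also known as a regulator of the deacetylase Sirt1, was higher in A1. It read 10.67 and 10.74 in uninduced and induced A1, 9.94 and 10.01 in B3, and 9.96 and 10.16 in C6. A1 did not overlap the others, and the range of the clone means was 0.73 (limma, adjusted p = 0.0611). The test fitted with 1 probe set per gene called both Rpl39l and Rps19bp1, where the share of all genes called was not counted. The third with an unadjusted p under 0.05 was the dim Rps16. Of the other paralogs, Rpl7l1, Rpl22l1, Rps4l and Rpl3l had A1 induction estimates of 0.14, 0.07, -0.09 and -0.25, none past the test.

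Rps20, a small subunit protein, differed between clones in the 2 dimmest of its 4 probe sets. Its brightest probe set lay between 14.01 and 14.06 on all arrays. The next, averaging 13.82, had a range of the clone means of 0.05 (limma, adjusted p = 0.973). A dimmer one read 7.34, 7.18 and 6.06 in uninduced A1, B3 and C6 and 7.21, 7.42 and 6.42 in the induced arrays, lowest in C6 in both states (range of the clone means 1.06; limma, adjusted p = 0.0412). The dimmest behaved alike (range 0.87, adjusted p = 0.0365). Of the 106 probe sets of the members, 3 passed this clone test, beside 1.13% of all probe sets.

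Genes that surround the ribosomal proteins in the pathway were taken from lists. In the comparison of induced with uninduced arrays 0 of them passed limma. In the test of A1 against B3 and C6, which called 2.71% of all probe sets (1.71% with A1 above the others), the other translation genes with TOP messages had 1 call in 19, Eef2 (0.91, limma adjusted p = 0.0471), the factor that moves the ribosome along the message. It read 12.60, 13.13 and 13.22 in uninduced and 13.05, 12.80 and 12.62 in induced A1, B3 and C6. The small subunit assembly factors had 1 call in 26, Nol6 (0.98, adjusted p = 0.0309), a component of the processome. The large subunit assembly factors had 0 in 34, with Bop1 at 0.80 (0.0837), and the chaperones of ribosomal proteins had 0 in 8, with Aamp at 0.68 (0.0901).

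The subunits and factors of RNA polymerase I, which transcribes ribosomal RNA, had 0 calls in 12, with Ubtf at 0.83 (limma, adjusted p = 0.0663). Growth control genes had 2 in 15. These were Tsc2 (1.05, adjusted p = 0.0307), a repressor of mTORC1, and Rps6kb2 (0.86, 0.0445), an S6 kinase. The host genes of small nucleolar RNAs had 1 in 7, Snhg3 (1.49, 0.00965). The ES markers had 1 in 9, Esrrb (1.02, 0.0347), and the fibroblast, primitive endoderm and neural markers had 0. The induction difference of A1 was above that of the others in all 6 called genes of these lists and below it in Rpl27a. Of the 1219 probe sets called in this test, 769 were above and 450 below. The 1219 are 2.71% of all probe sets, most of which average under 6. All 15 growth control genes, like the other called genes of these lists, averaged at least 6, and the share called at equal brightness was not counted in this fit. The median A1 estimates were -0.05 for the TOP translation genes, 0.08 and -0.08 for the small and large subunit assembly factors, -0.21 for the chaperones, -0.21 for RNA polymerase I, 0.28 for growth control and 0.02 for the host genes, beside -0.011 over all probe sets. Fau had an A1 estimate of 0.0040.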

How the data were processed

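Total RNA of 6 samples was hybridized, and the authors deposited log2 probe-set summaries made by robust multiarray averaging (RMA). For this step affy and RMA, with no version, are listed in the submitters' notes on processing. RMA brings arrays to a common distribution, so a change in all RNAs together would not show. No further normalization was applied to the deposited log2 values. Of 45101 probe sets, 64 were controls and left out. Of the rest, 34945 had 1 symbol in the platform annotation, 932 several and 9160 none.

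Groups and clones came from the sample titles. limma 3.58.1 in R 4.3.3 (lmFit, eBayes, two-sided) was fitted over all 45037 probe sets with Benjamini-Hochberg adjustment and a threshold of 0.05. The comparisons were induced against uninduced (no block), the induction difference of A1 against B3 and C6, induction in B3 and C6 with the clone as a block, and an F test over clones. The limma fit took the place of the methods' t-test, which was run as an alternative. The scripts were tested on simulated data. The clones pair the samples across groups: within a clone, both arrays' deviations from the means of their groups had correlations of 0.19 (A1), 0.53 (B3) and 0.31 (C6). The labels call the arrays biological replicates, so p-values of induced against uninduced measure the spread between clones. In the A1 test and in the test of B3 and C6, the spread is that between the induction differences of B3 and C6, moderated by limma over all probe sets. In the F test the clones are the tested effect, and the spread is what remains within clones after the state is fitted. No clone had a repeat array in either state.

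The members, the gene lists and the test of A1 were chosen with earlier results of these data known. Named were all paralogs, the 5 largest mean differences and 5 smallest p of the A1 test in each direction, the 3 smallest and 3 largest SD, the 3 genes with the most discordant probe sets, and up to 3 genes per list by p. Others were named after their values were seen. Alternatives covered the block, test, variance model, normalization, filter, probe sets and left-out arrays. GC content, saturation and array date were not analysed here, and the number of arrays limits the precision.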

Additional observations from a re-analysis of the deposited data

Results flagged for a closer look

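The induction difference of Rpl27a in clone A1 differed from that in B3 and C6 by -1.16 on the log2 scale (limma, adjusted p = 0.0425), where A1 changed by -0.41, B3 by 0.47 and C6 by 1.03. It was 1 of 1219 probe sets, 2.71% of all, for which the induction difference of A1 differed from that of the other clones. The probe set of Rpl27a averaged 7.31, its other probe set had an estimate of 0.10, and the call was lost in 3 alternative settings.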

How the results depend on the processing

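In the comparison of induced with uninduced arrays, 0 members were called in every alternative run, the replicate block included (0 of 50 members, and 0 probe sets). The members' median difference of 0.0098 became -0.0038 with arrays centred on their medians and -0.0051 without clone A1, and lay between -0.0073 and 0.015 when each array was left out in turn. The median A1 estimate of -0.00089 became 0.010 with median centring, -0.020 with quantile normalization, -0.026 with a gene's probe sets averaged, -0.015 without probe sets marked _x_at, and 0.0087 for A1 against C6 alone, a setting chosen after seeing the data. The count of members called in the A1 test, 1 in the main analysis, was 0 with a mean-variance trend, 0 with 1 probe set per gene, 0 with averaged probe sets and 2 (Rpl27a and Rps27l) among probe sets averaging at least 6. In the main analysis that test called 1219 of 45037 probe sets. Among those averaging at least 6 it called 2355 of 17168, a larger share, and with 1 probe set per gene 458 of 18193. In alternatives chosen after seeing the data, induction in B3 and C6 called 0 members with 1 probe set per gene, 0 with no replicate block and 3 with a trend (Rpl27a, Rps10 and Rps27l). The clone test called 0 among those averaging at least 6 and 2 when each gene had 1 probe set. For these alternatives of the B3 and C6 test and the clone test, the share of all probe sets called was not counted. The cause of these changes was not tested. Few arrays and, in the A1 test, a single clone in 1 arm limit what could be detected.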
